A study of Mus musculus with 6 samples.

Results

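The JAK kinases and STAT factors were examined in B cell precursors of mice that had been transformed by BCR-ABL1, the oncogenic kinase that the Philadelphia chromosome encodes in acute lymphoblastic leukemia. Probe sets were chosen by gene symbol, as those whose symbol in the platform annotation is Jak1, Jak2, Jak3, Tyk2, Stat3, Stat4, Stat5a, Stat5b or Stat6. Of these 9 genes, 8 had a probe set assigned to that gene alone, among 19938 genes measured in this way, and each of the 8 had exactly 1 such probe set. Jak3 is listed together with a second gene on its 1 probe set, so no value is given for it. RNA came from 3 samples of Etv5 knockout cells (KO) and 3 samples of Etv5 wild-type cells (WT), all of strain 129SvEv and all carrying BCR-ABL1, and was hybridised to 1-colour arrays. Etv5 is a transcription factor of the ETS family. The labels give neither the exons removed in the knockout allele nor say whether the samples were separate cultures or animals; the p-values therefore rest on sample-to-sample spread that may be technical.

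The cytokine receptors that signal through JAK kinases have no kinase of their own. They hold JAK kinases on their cytoplasmic tails, which, once a cytokine draws the chains together, phosphorylate the receptor and then the STAT proteins that dock on it, and paired STATs move to the nucleus and switch on target genes, among them inhibitors that close the loop. In B cell precursors the interleukin-7 receptor signals through JAK1 and JAK3 to STAT5, and BCR-ABL1 activates STAT5 as well.

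The promoters of Tyk2, Jak1 and Stat5b are shown because these were the members with the smallest p-values, and because Etv5 belongs to the ETS family, whose DNA motif has GGAA at its core. Each window runs from 250 bases before to 50 bases after an annotated start, 5′ to 3′ on the strand of the gene, in RefSeq sequence of build GRCm38.p6. All 9 genes matched, with 12 windows in all, since Stat4, Stat5a and Stat5b have more than 1. Capitals mark GGAA on either strand, read as GGAA or TTCC.
Tyk2, chr9:21131226-21131525, minus strand: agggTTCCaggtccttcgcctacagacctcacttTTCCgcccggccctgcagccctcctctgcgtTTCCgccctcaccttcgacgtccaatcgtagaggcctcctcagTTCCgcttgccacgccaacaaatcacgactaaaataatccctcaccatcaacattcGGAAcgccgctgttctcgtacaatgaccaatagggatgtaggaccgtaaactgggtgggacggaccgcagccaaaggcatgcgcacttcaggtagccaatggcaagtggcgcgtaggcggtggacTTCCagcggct
Jak1, chr4:101265174-101265473, minus strand: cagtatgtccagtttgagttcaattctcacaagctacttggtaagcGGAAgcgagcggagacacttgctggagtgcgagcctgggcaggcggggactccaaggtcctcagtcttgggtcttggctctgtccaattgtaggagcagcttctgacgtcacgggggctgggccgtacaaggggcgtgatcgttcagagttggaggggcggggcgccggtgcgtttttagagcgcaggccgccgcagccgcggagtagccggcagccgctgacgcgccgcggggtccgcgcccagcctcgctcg
Stat5b, chr11:100850532-100850831, minus strand, the window farther upstream of its 2: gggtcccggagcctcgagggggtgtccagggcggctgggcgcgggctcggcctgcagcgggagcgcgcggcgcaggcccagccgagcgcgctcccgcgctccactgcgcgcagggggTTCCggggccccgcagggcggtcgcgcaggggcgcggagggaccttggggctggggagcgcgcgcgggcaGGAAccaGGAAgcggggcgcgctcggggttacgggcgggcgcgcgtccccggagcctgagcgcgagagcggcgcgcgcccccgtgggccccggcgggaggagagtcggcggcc
The core stood 6 times in the Tyk2 window, once in that of Jak1 and 3 times in that of Stat5b. The median over all 32851 promoter windows of this length was 3, and 96.0% of them held at least 1 copy. The longer ETS form CCGGAA, searched on both strands and overlapping the core, was found in 2 of the 12 member windows, that of Stat6 and the Stat5b window shown, where all promoters gave 14.9%. The STAT binding form TTCNNNGAA was found in 0 of the 12 windows, against 8.30% of all promoters. A match is only a description of these letters.

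On the arrays as a whole, values are log2 signals, medians of the 6 arrays lay between 7.79 and 7.84, and 884 of the 19938 genes passed the test used throughout, a limma fit of KO against WT over all 35556 probe sets with a Benjamini-Hochberg adjusted p below 0.05. The targeted gene is named by 2 probe sets. Probe set 10438626 of Etv5 gave 8.97, 8.91 and 8.92 in KO samples and 9.30, 9.52 and 9.27 in WT samples (log2 change -0.43, limma adjusted p = 0.0467), a call lost in each of the 6 fits without 1 sample (limma adjusted p 0.0712 to 0.18). Probe set 10363901, also named Etv5 and the brighter of the pair, gave 11.67, 11.88 and 11.73 in KO samples and 11.48, 11.52 and 11.46 in WT samples, higher in KO without passing (log2 change 0.28, limma adjusted p = 0.13), and passed as higher in 2 alternatives, single-gene probe sets (adjusted p = 0.0486) and the robust variance trend (0.0437). Whether either lies in the deleted part is not given in the sources used here, so neither checks the deletion. B cell precursor markers were bright: 12 of 13 were measured, and Igll1, Cd79b, Cd79a and Ebf1 had mean log2 signals of 14.27, 13.73, 13.69 and 13.63. Their summed linear signal ranged from 90040 to 93717 in KO samples and from 88613 to 90408 in WT samples, with Pax5 higher, Dntt and Vpreb2 lower and 9 not passing. None of 13 measured T and NK cell markers passed, and their sums ranged from 1586 to 1726 in KO samples and from 1559 to 1656 in WT samples. An unadjusted limma p under 0.05 was found for 3 of the 13, against 13.4% of all genes. Cd4 (-0.19) and Gzma (-0.23) were lower in KO and Ncr1 (0.34) was higher. Of 6 measured mature B cell markers, Cxcr5, the chemokine receptor gene of follicular B cells, fell and 5 did not pass. An unadjusted limma p under 0.05 was found for 4 of the 6, in both directions. Cxcr5 and Fcer2a (-0.18) were lower in KO, and Cd22 (0.38) and Ms4a1 (0.27) higher. In all, 4 markers had log2 changes above 0 and 2 below, with a median of 0.10. Sums ranged from 8124 to 9288 in KO samples and from 8667 to 9226 in WT samples. Most of each sum was Cd37 (mean log2 signal 12.92, against 8.48 for Cxcr5, the next brightest), so the sums say little of the other markers. Cxcr5 gave 6.74, 7.35 and 7.16 in KO samples and 9.93, 9.87 and 9.82 in WT samples (log2 change -2.79, limma adjusted p = 0.000511), and it passed in all 15 alternative fits. Of 12 myeloid markers, Itgam and Ly6g passed, both higher in KO, while 7 of the 12 had log2 changes below 0 (list median -0.01). Itgam and Ly6g were dim, with mean log2 signals of 7.54 and 7.12, below the array medians. Lyz2, the brightest of the 12, differed by -0.32 without passing (limma adjusted p = 0.473). Sums of the 12 ranged from 1693 to 1918 in KO samples and from 1588 to 1721 in WT samples. The part of other cell types in the results below was not tested. None of 3 erythroid and 8 stromal or endothelial markers passed limma, or had an unadjusted p under 0.05. Apart from Cxcr5, each of the marker calls (Pax5, Dntt, Vpreb2, Itgam and Ly6g) was lost in 3 to 6 of the 6 fits without 1 sample (highest limma adjusted p 0.0694 for Ly6g to 0.197 for Vpreb2).

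Among the JAK kinases and STAT factors, Tyk2 was the 1 gene that passed the test. It fell 2.51-fold in KO cells, while the other 7 measured members, including Jak1, Jak2 and both Stat5 genes, did not pass the test. Tyk2 encodes the JAK family kinase that serves the receptors of type I interferons, interleukin-10 and interleukin-12. Thus 1 of 8 members passed, and it was lower in KO, where 4.43% of all genes passed in either direction and 2.01% passed as lower in KO. At an unadjusted limma p under 0.05 there were 3 members of 8 (Tyk2, Stat5b and Jak1), against 13.4% of all genes. The 3 KO values lay apart from the 3 WT values in 5 members of 8, against 20.5% of all genes. The median log2 change of the 8 members was 0.01, and that of all genes -0.004. Without regard to sign, the medians were 0.15 for the members and 0.061 for all genes. All 8 members had mean signals above the array medians, whereas the shares and medians of all genes include dim genes. They were not computed for genes as bright as the members. Whether the members differed more than genes of like brightness was therefore not tested.

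**Figure D1:**
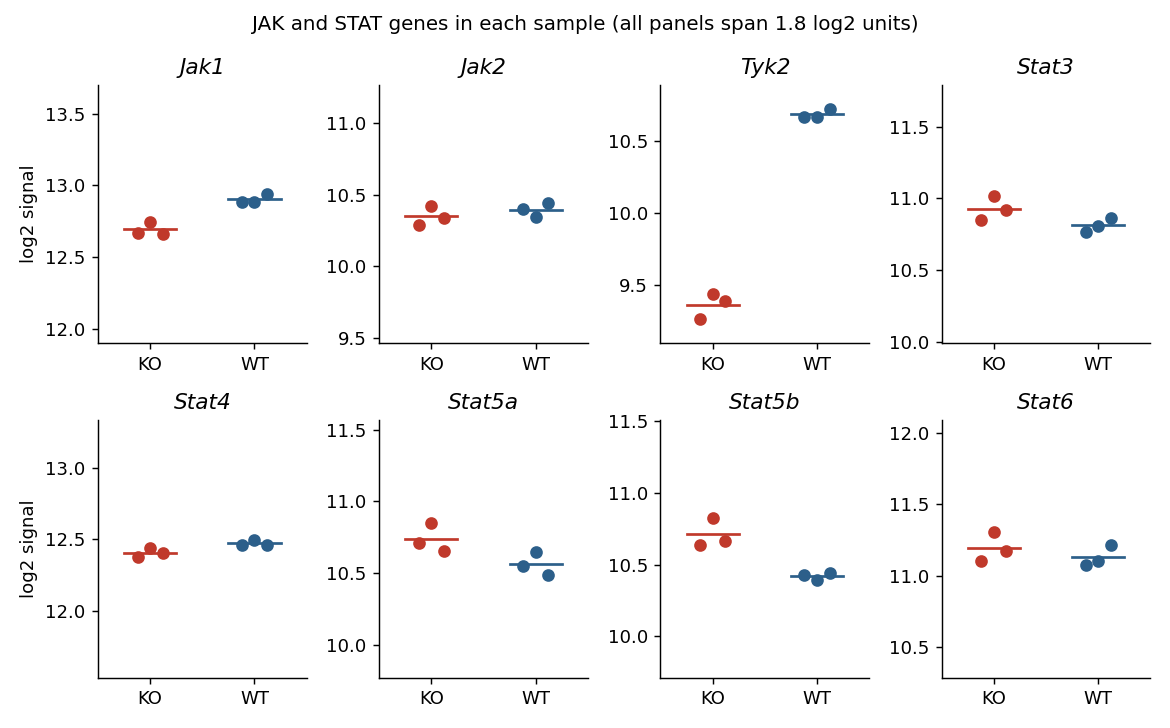
Log2 signal of the 8 measured JAK and STAT genes (y axis) in the 3 KO and 3 WT samples (x axis), with points for samples and lines for group means; every panel spans the same range. Tyk2 lies near 9.4 in KO samples and near 10.7 in WT samples, and the other genes differ by less than 0.3.

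Tyk2 gave 9.26, 9.43 and 9.39 in KO samples and 10.67, 10.67 and 10.73 in WT samples. Every KO value lay more than 1 log2 unit below every WT value. The means were 9.36 ± 0.0894 in KO and 10.69 ± 0.0321 in WT (log2 signal, SD, n = 3 each). The log2 change was -1.33 ± 0.062 (SE), with a limma adjusted p of 0.000313. On the linear scale the fall was 2.51-fold, with a 95% interval of 2.26 to 2.79. By size it was the 45th largest fall of 19938 genes, and by p-value Tyk2 ranked 46th. All 15 alternative fits called it, with log2 changes from -1.37 to -1.28 and limma adjusted p from 1.12e-05 to 0.00729. In bulk RNA, fewer cells that make a transcript and less of it per cell cannot be told apart.

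Jak1, the kinase that serves nearly every class of cytokine receptor and pairs with JAK3 under the interleukin-7 receptor, gave 12.67, 12.75 and 12.66 in KO samples and 12.88, 12.88 and 12.94 in WT samples. The groups did not overlap, yet the distance was small: the log2 change was -0.21 ± 0.051 (SE, 95% interval -0.33 to -0.09, limma adjusted p = 0.128). The bound farthest from 0 corresponds to a 1.26-fold lower signal. Jak1 passed in 1 of 15 alternatives, a variance trend with robust settings (adjusted p = 0.0134).

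Jak2, the kinase of the erythropoietin, thrombopoietin and interleukin-3 receptors, gave 10.29, 10.42 and 10.33 in KO samples and 10.40, 10.34 and 10.44 in WT samples. The groups overlapped, and the difference of -0.04 (95% interval -0.19 to 0.10, limma adjusted p = 0.932) was smaller than the SD of either group. It passed in none of the 15 alternatives.

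Within each array, Tyk2 minus Jak1 was -3.41, -3.31 and -3.28 in KO samples and -2.21, -2.21 and -2.21 in WT samples. Tyk2 minus Jak2 was -1.03, -0.99 and -0.95 in KO samples and 0.27, 0.33 and 0.29 in WT samples. Both differences between probe sets were thus lower in every KO sample than in any WT sample, by 1.12 and 1.28 log2 units on average. These differences restate the changes of the genes within each array. An exact two-sided permutation test gave p = 0.1 for each, which is the smallest that 3 samples against 3 allow and cannot pass the threshold. Probe sets bind with different strength, so levels of different genes were not ordered.

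None of the 5 STAT genes passed the test. Stat5b and Stat5a encode the closely related STAT5 proteins on which interleukin-7 and BCR-ABL1 signalling converge. Stat5b gave 10.64, 10.83 and 10.67 in KO samples and 10.43, 10.39 and 10.44 in WT samples, with no overlap. Its log2 change of 0.29 ± 0.066 (SE, 95% interval 0.13 to 0.45) missed the threshold (limma adjusted p = 0.10). It passed in 5 of 15 alternatives (adjusted p 0.0298 to 0.0477), all of which changed the probe sets tested, the scaling or the variance model, and in none of the fits without 1 sample (adjusted p 0.12 to 0.325).

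Stat5a gave 10.71, 10.85 and 10.65 in KO samples and 10.55, 10.65 and 10.49 in WT samples. The lowest KO value lay just above the highest WT value, and the log2 change was 0.18 ± 0.075 (SE, 95% interval -0.004 to 0.36, limma adjusted p = 0.47). The 2 genes are alike in sequence and the probes are not given, so signal shared between their probe sets was not tested. Within each array, Stat5b minus Stat5a was -0.07, -0.02 and 0.01 in KO samples and -0.13, -0.25 and -0.04 in WT samples, a mean difference of 0.11 (exact two-sided permutation p = 0.2).

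Stat3, the factor downstream of gp130 and interleukin-10 receptors, gave 10.85, 11.02 and 10.92 in KO samples and 10.77, 10.81 and 10.86 in WT samples. The lowest KO value lay below the highest WT value, and the log2 change was 0.11 (95% interval -0.04 to 0.27, limma adjusted p = 0.66). Stat6, the factor of interleukin-4 and interleukin-13, gave 11.10, 11.30 and 11.17 in KO samples and 11.08, 11.10 and 11.21 in WT samples. These groups overlapped, with a log2 change of 0.06 (95% interval -0.11 to 0.24, limma adjusted p = 0.917). Stat4, the factor of interleukin-12 signalling in T and NK cells, gave 12.37, 12.44 and 12.41 in KO samples and 12.46, 12.50 and 12.46 in WT samples. All KO values lay below all WT values, but by little: the log2 change was -0.07 (95% interval -0.18 to 0.05, limma adjusted p = 0.782). Stat3, Stat4, Stat5a and Stat6 passed in none of the 15 alternatives. Stat2, which is not among the members and serves type I interferon signalling, gave 9.98, 10.13 and 10.03 in KO samples and 9.85, 9.91 and 9.97 in WT samples (log2 change 0.14, limma adjusted p = 0.519).

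**Figure D2:**
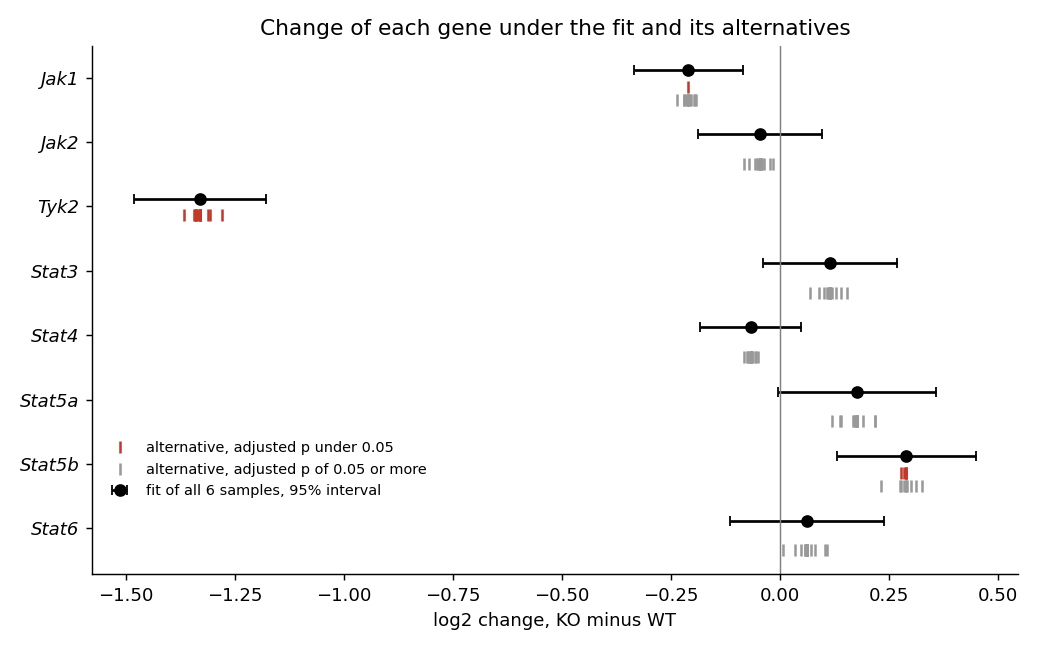
Log2 change, KO minus WT (x axis), of each measured gene (y axis): circles with bars are the fit of all 6 samples and its 95% interval, and ticks below are the 15 alternative fits, red where the adjusted p was under 0.05. Tyk2 is red in all 15, Stat5b in 5 and Jak1 in 1, and no gene changed sign.

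Between samples of a genotype, the SDs of the members ran from 0.0317 to 0.102 in KO and from 0.0209 to 0.0798 in WT, where the median gene had 0.0869 in KO and 0.0705 in WT. In all 8 members KO sample 2 gave the highest of the KO values. The same sample was highest among KO samples for 54.8% of all genes and for 77.5% of the 6167 genes with a mean log2 signal of at least 10, a bound chosen after the values were seen and which all 8 members meet. Without KO sample 2, the log2 change was 0.23 for Stat5b, 0.12 for Stat5a and -1.37 for Tyk2.

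No measured gene beside Tyk2 passed the test. Tyk2 lies on chromosome 9. Its nearest measured neighbours in the gene order of GRCm38.p6, Zglp1 and Cdc37, which encodes a chaperone partner of kinases, differed by 0.04 and -0.04 (limma adjusted p = 0.959 and 0.909). Over 5 measured genes on each side, a number chosen after these neighbours were seen, log2 changes ran from -0.05 to 0.21 and 0 of 10 passed; 1 of them, the adhesion molecule gene Icam1 (0.21), had an unadjusted limma p under 0.05 (0.0153). Stat5b, Stat5a and Stat3 lie next to each other on chromosome 11, and their changes were 0.29, 0.18 and 0.11 with none passing. The genes at the outer sides of this trio, Ghdc and Cavin1, differed by 0.11 and -0.09. Of 15 distinct nearest neighbours of members, which include the trio itself, 1 passed, where 4.43% of all genes passed in either direction. This was Nabp1, beside Stat4 on chromosome 1, which rose by 0.33 (limma adjusted p = 0.0406). The call of Nabp1 was lost in each of the 6 fits without 1 sample (highest adjusted p 0.176). Ak4, beside Jak1 on chromosome 4, differed by -0.31 without passing (limma adjusted p = 0.454), where Jak1 itself differed by -0.21. Every KO value of Ak4 lay below every WT value, the closest being 7.90 and 7.91. Genes beyond the nearest neighbour were examined for Tyk2 alone.

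**Figure D3:**
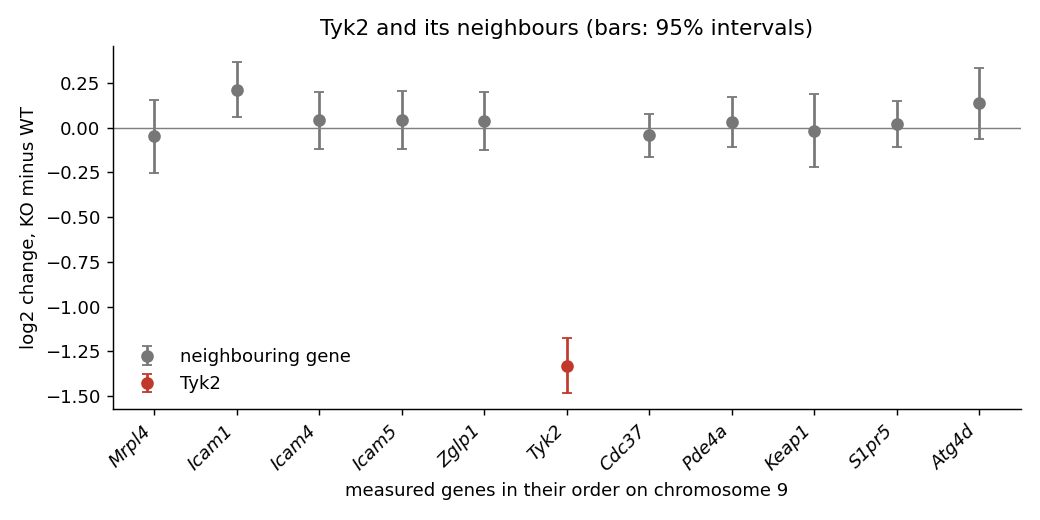
Log2 change, KO minus WT, with 95% intervals (y axis) of Tyk2 and the 5 measured genes on each side in their order on chromosome 9 (x axis). Tyk2 stands at -1.33 and its neighbours between -0.05 and 0.21.

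The genes whose values over the 6 arrays ran most like those of Tyk2, among 9969 genes at or above the median brightness, were Stag3, Pgr, Dnajc6, Sema7a and Man1c1. Pearson correlations lay between 0.9994 and 0.9997 over 6 arrays that share the split into 2 genotypes and are given as a description. All 5 fell in KO cells, a direction that their choice by likeness to Tyk2 all but fixed. Stag3, a meiotic cohesin subunit gene, changed by -2.93, Pgr, the progesterone receptor gene, by -2.36, Dnajc6, which encodes the clathrin-uncoating protein auxilin, by -1.77, Man1c1, a mannosidase gene of glycan processing, by -1.69 and Sema7a, a membrane-anchored semaphorin gene, by -1.15.

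Around the kinases and STATs, the pathway lists held more genes that rose than fell. Of 128 distinct receptors, ligands, inhibitors, cofactors and targets, 122 were measured; 12 rose in KO, 2 fell and 108 did not pass, with 11.5% passing in all and a median log2 change of 0.02. Fits without 1 sample called 6 to 9 as higher and 1 to 3 as lower; without WT sample 1, and likewise without KO sample 3, 6 of the 12 rises and 1 of the 2 falls kept their call. All genes gave 2.42% higher and 2.01% lower. At an unadjusted limma p under 0.05 they gave 13.4%, and these shares are the background for each list below. The shares were not matched to the brightness of the listed genes. Several of these genes were known to differ when the lists were drawn up, so the count is a description.

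The largest of these changes was that of a receptor chain. Il10ra, the ligand-binding chain of the interleukin-10 receptor, gave 9.41, 9.69 and 9.68 in KO samples and 7.36, 7.24 and 7.25 in WT samples, a 4.97-fold rise (log2 change 2.31 ± 0.092 SE, limma adjusted p = 0.000188). Its KO values lay about 2 log2 units above its WT values in every sample, and it passed in all 15 alternatives. Csf2rb2, the mouse interleukin-3 receptor beta chain that works through JAK2, gave 10.46, 10.64 and 10.61 in KO samples and 9.75, 9.76 and 9.85 in WT samples (log2 change 0.78, adjusted p = 0.00266) and also passed in all 15. Its close relative Csf2rb, the common beta chain, differed by 0.39 without passing (adjusted p = 0.0763), and the pair are alike in sequence, so signal shared between them is possible and was not tested. Il2ra, the interleukin-2 receptor alpha chain, rose by 0.56 (adjusted p = 0.00914), losing its call without KO sample 3 or WT sample 1 (adjusted p 0.0517 and 0.0554).

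Of the chains that bind TYK2, grouped after their values were seen, Il13ra1 rose by 0.40 (limma adjusted p = 0.018) and Ifnar1, Il10rb, Il12rb1 and Il6st differed by 0.07, 0.05, -0.01 and -0.38 without passing (adjusted p = 0.72, 0.942, 0.996 and 0.0895). Il13ra1 was dim, with 7.08, 7.21 and 7.09 in KO samples and 6.69, 6.74 and 6.74 in WT samples. All of these values lay below the array medians, and the fit without the dimmest probe sets left Il13ra1 out. Ifngr2, the interferon gamma receptor chain that binds JAK2, rose by 0.33 (adjusted p = 0.0162). Il13ra1 lost its call in 4 of 6 fits without 1 sample, all but those without KO sample 1 or 2, and Ifngr2 in 5, all but that without KO sample 1 (highest adjusted p 0.0979 and 0.0935). Il7r, the interleukin-7 receptor chain, gave 13.26 in each KO sample and 13.16, 13.21 and 13.21 in WT samples (log2 change 0.07, adjusted p = 0.784), and its partner for the ligand TSLP, Crlf2, differed by 0.13 (adjusted p = 0.555). Il5ra differed by -0.52 (adjusted p = 0.0627). Over the 3 receptor lists, 1 of 8, 1 of 8 and 3 of 15 measured genes rose and none fell by limma, with 2, 3 and 5 at an unadjusted p under 0.05.

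Of 18 measured ligands none passed limma, and 1 had an unadjusted p under 0.05: Lif, a gp130 cytokine gene, gave 8.96, 9.48 and 9.28 in KO samples and 9.76, 9.74 and 9.82 in WT samples (log2 change -0.53, adjusted p = 0.131).

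Of 20 inhibitors, 4 rose, none fell and 16 did not pass, where 2.42% of all genes passed as higher. An unadjusted limma p under 0.05 was found for 9 of the 20, against 13.4% of all genes. Cish, a STAT5-induced feedback inhibitor of cytokine receptors, gave 10.84, 10.95 and 10.95 in KO samples and 10.09, 10.06 and 10.19 in WT samples, a 1.75-fold rise (limma adjusted p = 0.00176). Socs1, which inhibits JAK kinases directly, gave 10.41, 10.59 and 10.39 in KO samples and 9.94, 9.97 and 10.12 in WT samples, a rise of 0.45 (adjusted p = 0.0416). Ptpn6, the gene of the phosphatase SHP-1, rose by 0.29 (adjusted p = 0.0437) and Dusp3, a dual-specificity phosphatase gene, by 0.37 (adjusted p = 0.0492). Cish was called in every alternative, whereas Socs1, Ptpn6 and Dusp3 passed in none of the 6 fits without 1 sample (highest adjusted p 0.172, 0.197 and 0.202). The JAK-binding adaptor gene Sh2b3 differed by 0.30 and the STAT3 inhibitor gene Pias3 by 0.34, neither passing (adjusted p = 0.157 and 0.176).

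**Figure D4:**
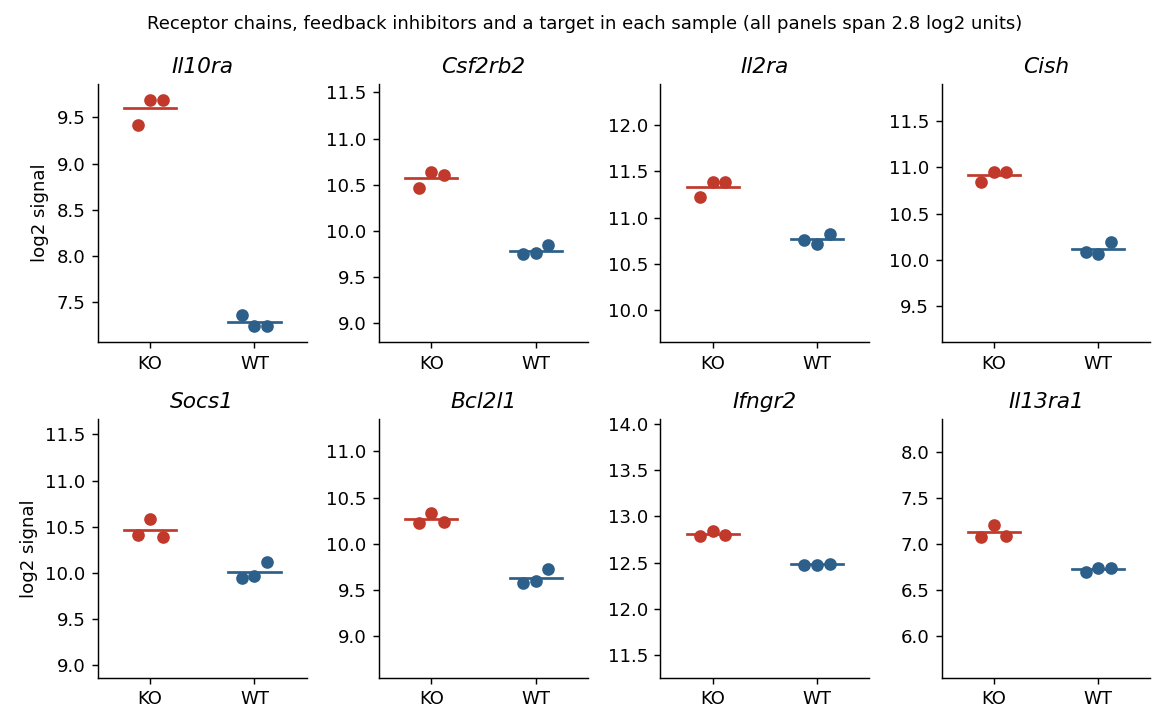
Log2 signal (y axis) of 5 receptor chain genes, the inhibitor genes Cish and Socs1 and the target gene Bcl2l1 in the 3 KO and 3 WT samples (x axis), with points for samples and lines for group means; panels span equal ranges. In all 8 genes the KO samples lie above the WT samples, with the widest gap in Il10ra.

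Target genes were counted by the STAT that is known to regulate them, whether it raises or lowers them. Of 20 STAT5 targets, 4 rose and none fell: besides Cish, Socs1 and Il2ra this was Bcl2l1, the gene of the survival protein BCL-XL, which gave 10.22, 10.33 and 10.24 in KO samples and 9.57, 9.59 and 9.73 in WT samples (log2 change 0.63, limma adjusted p = 0.00499). The list had a median log2 change of 0.08, with 13 genes above 0 and 7 below. An unadjusted limma p under 0.05 was found for 9 of the 20, against 13.4% of all genes, and 2.42% of all genes passed as higher. The feedback inhibitor gene Socs2, also a STAT5 target, differed by -0.03 (adjusted p = 0.958). The targets Bcl2 (-0.29, adjusted p = 0.0808) and Ccnd3 (0.20, adjusted p = 0.126) did not pass. Of 15 STAT3 targets none passed limma. An unadjusted p under 0.05 was found for 2, Il6st and Socs3 (0.20, adjusted p = 0.296), a share near the 13.4% of all genes. Of 11 measured STAT6 targets, 2 rose, both of them also STAT5 targets (Cish and Socs1). Of 9 STAT4 targets, Il2ra rose and Map3k8, a MAP kinase kinase kinase gene, fell by 0.56 (adjusted p = 0.00542, called in every alternative). Among 14 adaptors and cofactors, Ncoa1, a transcriptional coactivator gene, rose by 0.74 (adjusted p = 0.00205), the repressor gene Gfi1 rose by 0.71 (adjusted p = 0.00528), and its relative Gfi1b fell by 0.50 (adjusted p = 0.0443); Gfi1b lost its call in 5 of 6 fits without 1 sample, all but that without KO sample 2 (highest adjusted p 0.175).

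**Figure D5:**
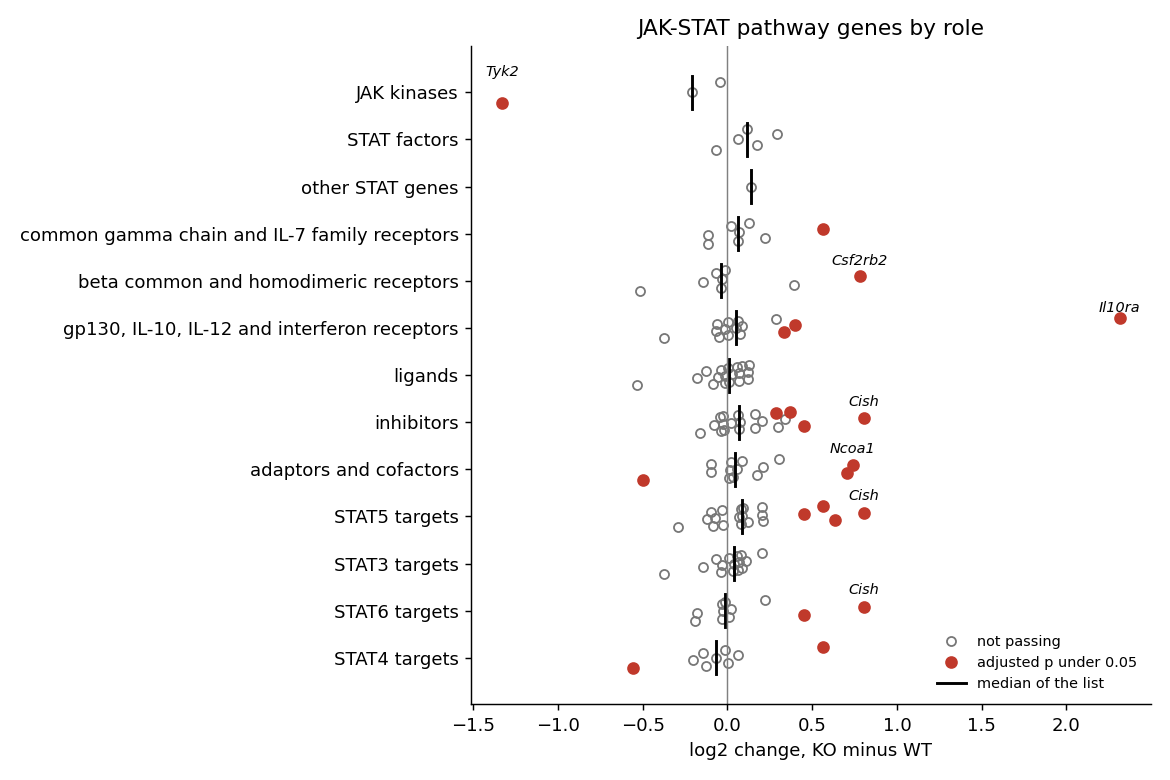
Log2 change, KO minus WT (x axis), of each measured gene by role (y axis); filled points passed the test, open points did not, and black bars are list medians. Tyk2 stands alone among the kinases at -1.33 and Il10ra among the receptors at 2.31, while every list median outside the kinases lies within 0.14 of 0; a gene in several lists is drawn in each.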

How the data were processed

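Biotin-labelled RNA of 3 KO and 3 WT samples was put on 1-colour arrays, per the labels. The authors' deposited table gives log2 signals for 35556 probe sets in each sample. The submitters' processing notes name RMA, which compresses differences of dim probe sets, and Partek 6.5; that the scale is log2 follows from its range, and background settings or filters are not stated. Precision is limited by the number of arrays.

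Groups and sample numbers came from the sample titles. In the annotation 21789 probe sets carried a single gene symbol, 1621 more than 1 and 12146 none; the brightest single-gene probe set, by the mean of 6 arrays, stood for a gene. KO was compared with WT in limma 3.58.1 (R 4.3.3; lmFit, eBayes, no covariate or filter, 6.23 total degrees of freedom), with Benjamini-Hochberg adjustment over all probe sets and a threshold of 0.05. The fit was tested on simulated data. The members, the lists and the rule for named genes (all members, Etv5, passing list genes and up to 4 more per list, nearest neighbours, and the 5 genes most like a passing member) were chosen with earlier results of these data known. Genes outside the rule are marked where they are named, except Igll1, Ebf1, Cd37 and Socs2, which carry no mark. Alternatives were a block for the sample number, removal of the dimmest 40%, a test of single-gene probe sets alone, 3 further scalings, a robust variance trend, array weights, a gene's mean over its probe sets, and each sample left out.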

Additional observations from a re-analysis of the deposited data

How the results depend on the processing

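Of 120 values for the 8 members over 15 alternatives, none changed sign, 114 kept their side of the threshold and 6 moved past it. The count of JAK and STAT genes that passed, 1 in the fit reported, was 2 with quantile normalization, cyclic loess, single-gene probe sets only or without the dimmest 40% of probe sets, each time by adding Stat5b, and 3 with a variance trend and robust settings, which added Jak1 as well. It was 1 in every fit without 1 sample. The count over all probe sets was 1095 and ran from 565 to 857 without 1 sample, the lowest without WT sample 1; it was 620 without WT sample 2 and 586 without KO sample 3. Samples that share a number did not deviate together for numbers 1 and 2 (r = -0.12 and 0.016), while those of number 3 did so weakly (r = 0.26). KO sample 3 correlated best with WT sample 3, but KO sample 1 correlated best with WT sample 2 (r = 0.31). Samples that share a number were therefore not treated as paired. With the sample number as a block the count of probe sets was 544, a fit with fewer residual degrees of freedom, and Tyk2 was the 1 member that passed (limma adjusted p = 0.00729); of the pathway genes, 6 of the 12 rises and 1 of the 2 falls kept their call under the block, and the calls of Il2ra, Il13ra1, Ifngr2, Socs1, Ptpn6, Dusp3 and Gfi1b were lost, as were those of Nabp1, Pax5, Dntt, Vpreb2 and the Etv5 probe set 10438626. Over the remaining alternatives, added for this count after the data were seen, 11 to 15 pathway genes were higher and 2 to 6 lower. The scalings moved the median of all probe sets by less than 0.1 log2 units.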
